A study of Mus musculus with 12 samples.

Results

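The later group of each remote tissue was compared here, the cortex after an injury to the skull against the skull bone after an injury to the brain, across every gene of the count table. The members were the 3 libraries labelled SB4 and the 3 libraries labelled BS6, taken by their column names, which are 6 of the 12 libraries analysed. Photothrombosis (PT) clots small vessels: the dye Rose Bengal circulates in the blood and a laser, shone through an optically cleared window in the skull, activates it over the chosen site. SB4 was brain cortex collected on day 4 after PT of the skull, and BS6 was interparietal bone, a flat bone at the back of the skull roof, collected on day 6 after PT of the brain. All groups used here were wild-type male BALB/c mice, of the same age when used for injury modelling, that received PT. Each group had 3 libraries described as biological replicates, and tissue was taken with the ischemic and the surrounding region. The other 6 libraries, used only in the last comparison, carry the labels BS2 (interparietal bone, day 2 after brain PT) and SB2 (brain cortex, day 2 after skull PT). Uninjured and directly injured tissues were not analysed here. The tissue, the injured site and the day all differ between SB4 and BS6 and cannot be told apart. Every difference below is therefore a difference between these 2 groups and cannot be assigned to injury.

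The cortex is built of excitatory neurons, which release glutamate, and inhibitory neurons, which release GABA, supported by astrocytes, myelinating oligodendrocytes, microglia and a tight vascular wall. Skull bone is laid down by osteoblasts, which secrete collagen I and become osteocytes as the matrix hardens around them, and is removed by osteoclasts, which dissolve mineral with acid and digest collagen with proteases. Between its plates lies marrow, where neutrophils, red cells, platelets, monocytes and B cells are made. The study asked how injury of one of these neighbouring tissues is reflected in the other, including genes of cell death, interferon gamma signalling and hypoxia.

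The 6 libraries held 14183813 to 18972654 counts over 22317 gene symbols. In SB4 the 10 highest genes took 6.15% to 6.23% of the counts, while in BS6 they took 19.8%, 12.5% and 23.9%. Levels are given below as CPM, the count of a gene scaled to a common library size with TMM factors, edgeR's correction for library composition, and 3 counts in a library, 0.158 to 0.214 CPM here, is the lowest level read as detected. The SB4 libraries resembled each other closely, and no gene above 10 CPM in one was over 10 times both others. The BS6 libraries differed more: 29 such genes stood out in BS6-2, against 4 in BS6-1 and 2 in BS6-3. BS6-2 carried more neutrophil RNA and less RNA of bone matrix than the other 2. Of 265 DEGs followed one by one, leaving out BS6-2 moved the fold change of 53 by over 1.5 times, against 2 to 11 for any other library, and none changed sign. Counts of lists that changed without BS6-2, and printed medians of lists that moved by over 1.5 times, are given both ways.

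The lists of markers showed both labels in the RNA. The 12 general neuron genes summed to 9860, 9862 and 9868 CPM in SB4 and to 156, 173 and 151 CPM in BS6. The 9 measured osteoblast genes summed to 164, 181 and 179 CPM in SB4. In BS6 the osteoblast sum was 116249, 44248 and 166792 CPM. The late neutrophil genes summed to 8.47, 11.2 and 2.74 CPM in SB4 and to 1648, 29764 and 3858 CPM in BS6, which shows how far BS6-2 stood from its group. Skeletal muscle genes summed to 93.7, 141 and 719 CPM in BS6 against 26.2 to 28.1 CPM in SB4, with BS6-3 highest. RNA from a whole piece of tissue does not tell fewer cells of a type from less RNA per cell, and this holds for every list below.

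**Figure D1:**
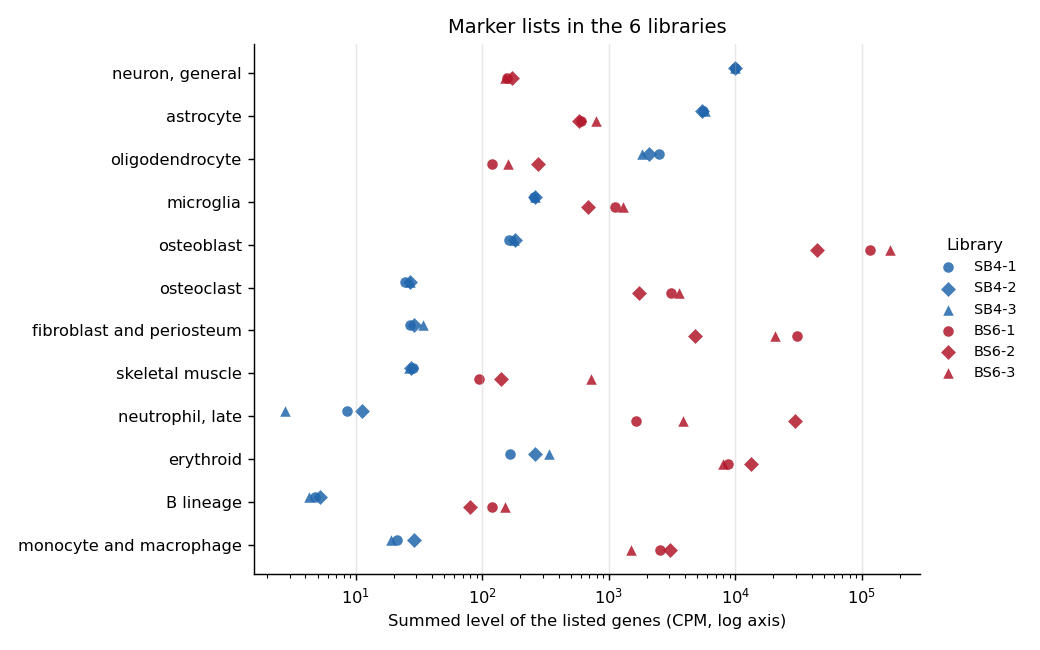
Summed CPM (log axis) of the measured genes of 12 marker lists in each library, SB4 in blue and BS6 in red, with a marker shape for each replicate number. SB4 lay above BS6 for neuron, astrocyte and oligodendrocyte genes and below it for the other 9 lists, and BS6-2 had the highest neutrophil sum (29764 CPM) and the lowest osteoblast sum (44248 CPM) of the BS6 libraries.

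Of 17298 genes with enough counts to be tested, 9576 (55.4%) were DEGs, called by edgeR's quasi-likelihood fit where the Benjamini-Hochberg adjusted p was below 0.05 and the fold change exceeded 2 (a log2 value beyond 1 or -1). In SB4 4589 genes (26.5%) were higher and in BS6 4987 genes (28.8%). A further 4541 genes (26.3%) were of similar level, with a 95% interval of the log2 fold change wholly between -1 and 1, and 3181 genes fell in neither class. Similar level means a difference of less than 2-fold and not an equal level, and some of these genes had an adjusted p below 0.05. The libraries of the 2 groups did not overlap for 14038 genes (81.2%), DEGs or not, while 23 DEGs had overlapping libraries. Genes higher in SB4 had a median log2 fold change of 2.45 and those higher in BS6 a median of -2.64, and 853 and 880 of them passed 5 on the log2 scale. The genes higher in SB4 made 54.9% to 55.2% of the counts of SB4 and 8.42% to 10.3% of those of BS6. The genes higher in BS6 made 48.0% to 56.2% of the counts of BS6 and 6.09% to 6.30% of those of SB4. The median log2 fold change over all genes tested was -0.0098, and every list below is to be read against these shares and this median.

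**Figure D2:**
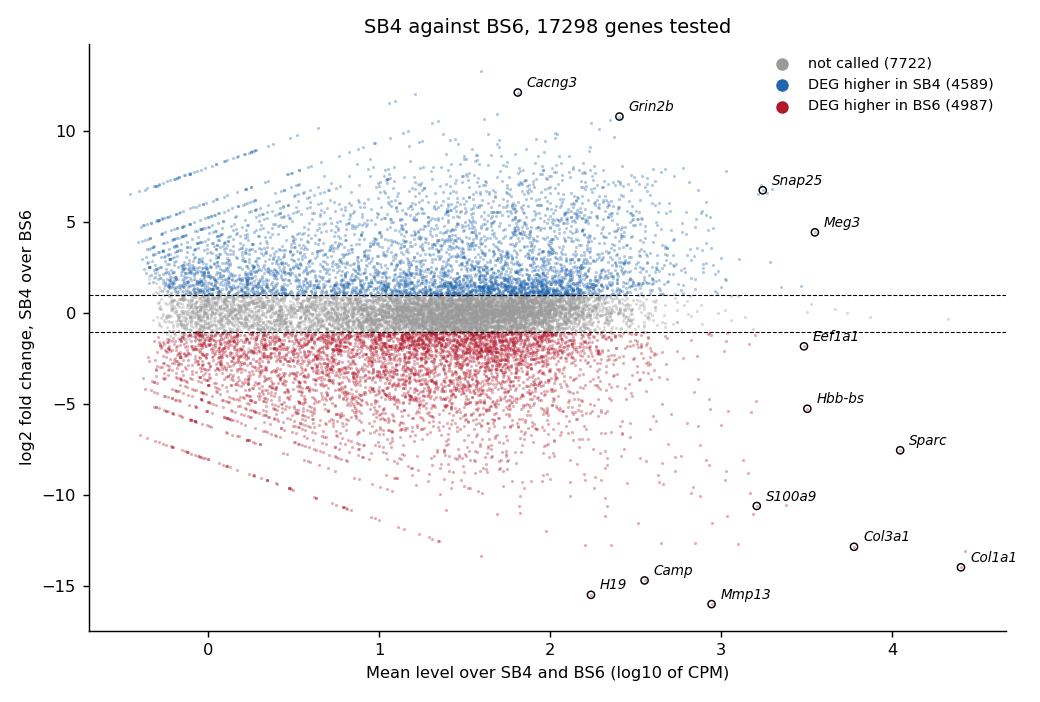
Log2 fold change of SB4 over BS6 (vertical axis) against the log10 of the mean CPM of both groups (horizontal axis) for the 17298 genes tested, with DEGs higher in SB4 in blue, DEGs higher in BS6 in red and the dashed lines at 1 and -1. Col1a1, Sparc and Col3a1 lay toward the far right below 0.

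The 10 DEGs higher in SB4 with the highest CPM included transcripts known from neurons and astrocytes and the 2 mitochondrial ribosomal RNAs. Meg3, a long noncoding RNA from an imprinted locus (chromosome 12, 109541001 to 109571726 in GRCm38), stood at 6825, 6941 and 6557 CPM in SB4 and 367, 379 and 196 CPM in BS6 (log2 fold change 4.45 ± 0.31 (SE), adjusted p = 3.91e-05). Slc1a2, the astrocyte transporter that takes glutamate out of the synapse, stood at 3969, 3727 and 4079.8 CPM in SB4 and 26.1, 68.9 and 8.99 CPM in BS6 (log2 fold change 6.84 ± 0.84 (SE), adjusted p = 0.000446). All 3 SB4 values lay over 50 times the highest BS6 value, that of BS6-2. Snap25, a SNARE protein that drives release of synaptic vesicles (chromosome 2, 136713453 to 136782428), stood at 3472, 3514 and 3447 CPM in SB4 and 16.8, 55.3 and 25.4 CPM in BS6 (log2 fold change 6.76 ± 0.54 (SE), adjusted p = 7.10e-05). Camk2a, the calcium/calmodulin kinase of synapses, had a log2 fold change of 7.04 ± 0.28 and Kif5a, a motor that carries cargo along axons, one of 6.58 ± 0.60 (SE). Snhg11, a noncoding host gene of small RNAs in neurons, had 3694, 3888 and 3446 CPM in SB4 and 17.0, 87.8 and 11.2 CPM in BS6. The mitochondrial ribosomal RNAs mt-Rnr1 and mt-Rnr2 were also called higher in SB4, with log2 fold changes of 1.44 ± 0.44 and 1.52 ± 0.39 (SE). BS6-2 had 2123 CPM of mt-Rnr1 where the other BS6 libraries had 729.8 and 802 CPM, and the mt-Rnr1 call was lost when any 1 of BS6-1, BS6-3, SB4-1 and SB4-3 was left out.

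The largest differences among genes above 100 CPM in the higher group went to receptors and secretory proteins of neurons on one side and to a collagenase, the chains of collagen I, an imprinted RNA and a neutrophil granule gene on the other. Cacng3, an auxiliary subunit of AMPA receptors (chromosome 7, 122670492 to 122769393), had 122, 133 and 133 CPM in SB4 and 1, 0 and 0 counts in BS6, at least 668-fold higher against the floor of 3 counts per library. Grin2b, a subunit of NMDA receptors, had 467, 478 and 583 CPM in SB4 and 0.334, 0.501 and 0 CPM in BS6 (log2 fold change 10.81 ± 0.62 (SE), adjusted p = 2.04e-05). Gpr26, an orphan receptor of the brain, Lamp5, a membrane protein of some cortical neurons, and Pcsk2, the protease that cuts neuropeptide precursors, had log2 fold changes of 10.62, 10.48 and 10.13. Pcsk2 had 0, 15 and 1 counts in BS6, so without BS6-2 its fold is only a bound. None of the 5 exceeded 1 CPM in any BS6 library. On the other side Mmp13, a collagenase of bone and cartilage (chromosome 9, 7272514 to 7283331), had 0, 0 and 1 counts in SB4 and 2155, 833 and 2299 CPM in BS6, at least 9854-fold higher in BS6. H19, an imprinted noncoding RNA (chromosome 7, 142575529 to 142578143), had no count in SB4 and 414, 204 and 424 CPM in BS6, at least 1943-fold higher. Camp, the cathelicidin of neutrophil granules, had 0, 1 and 0 counts in SB4 and 132, 1721 and 292 CPM in BS6, at least 3997-fold higher, or at least 1184-fold without BS6-2, which stood far above its group.

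The promoters of Mmp13 and Pcsk2 are printed because, among the 5 genes with the largest difference on each side, their RefSeq starts lie nearest to the annotated gene start (0 and 23 bases away). Each is 300 bases of GRCm38.p6, 250 before and 50 from the RefSeq start, on the strand of the gene, which is the plus strand for both. Capitals mark matches on either strand to 6 searched motifs. The TATA box was searched as TATAAA and the GC box bound by Sp factors as GGGCGG. The core site of Runx factors was searched as TGTGGT and that of PU.1 was searched as GAGGAAG. The cyclic AMP response element was searched as TGACGTCA and the E-box of basic helix-loop-helix factors as CACGTG.
Mmp13, chr9:7272264-7272563: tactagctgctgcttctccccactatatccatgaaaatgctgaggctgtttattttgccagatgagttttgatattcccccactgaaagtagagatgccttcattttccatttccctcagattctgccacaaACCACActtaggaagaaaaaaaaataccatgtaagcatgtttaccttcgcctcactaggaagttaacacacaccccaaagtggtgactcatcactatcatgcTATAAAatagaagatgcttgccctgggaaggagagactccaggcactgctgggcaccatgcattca
Pcsk2, chr2:143545883-143546182: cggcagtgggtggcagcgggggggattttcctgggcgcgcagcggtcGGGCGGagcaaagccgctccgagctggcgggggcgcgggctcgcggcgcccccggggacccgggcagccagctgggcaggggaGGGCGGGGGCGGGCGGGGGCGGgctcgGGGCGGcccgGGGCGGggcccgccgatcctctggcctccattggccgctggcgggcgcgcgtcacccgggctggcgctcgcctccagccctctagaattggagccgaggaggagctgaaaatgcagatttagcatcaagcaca
The Mmp13 window holds 1 TATAAA, which starts 16 bases before the RefSeq start, 1 Runx core on the reverse strand (ACCACA) and 1 CG, with a GC content of 43.7%. The Pcsk2 window holds 7 GC boxes, 2 of which share bases, and 36 CGs, with a GC content of 76.3%. Over all 32851 windows of this kind, 13.6% hold TATAAA, 35.7% a GC box, 16.8% a Runx core, 13.6% a PU.1 core, 1.79% a cyclic AMP response element and 7.15% the E-box, and the median window has 7 CGs. Among the 12204 windows of genes tested here, 7.5% hold TATAAA and 61.3% a GC box, and the median has 20 CGs. The windows of Cacng3, Lamp5 and Camp hold none of the 6 motifs. A match is a string of letters, not a site shown to be used. Since 70.6% of the genes tested had an entry, below the 80% needed, shares of motifs were not compared between the DEGs.

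All 12 general neuron genes were DEGs higher in SB4, with a median log2 fold change of 6.77 and a range of 3.11 to 8.23. They included the synaptic vesicle genes Syt1 (7.80 ± 0.27) and Syp (4.84 ± 0.13), the neurofilaments Nefl, Nefm and Nefh, the splicing factor Rbfox3 and the dendritic microtubule gene Map2 (6.77 ± 0.25). Nefm had 321, 306 and 306 CPM in SB4 and 0, 2.94 and 0.129 CPM in BS6, so the small amount found in bone sat in BS6-2. The smallest difference was that of Thy1 with 524, 549 and 521 CPM in SB4 and 88.7, 30.2 and 67.5 CPM in BS6, a surface protein that lymphoid and connective tissue cells also carry.

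Of 11 measured genes of cortical excitatory neurons 9 were DEGs higher in SB4 (median log2 fold change 5.59, or 6.85 without BS6-2). Slc17a7, the vesicular glutamate transporter of these cells, had 1089.7, 1027 and 1054 CPM in SB4 and 5.47, 8.07 and 3.75 CPM in BS6 (log2 fold change 7.53 ± 0.34 (SE), adjusted p = 9.00e-06). Tbr1, a transcription factor of deep-layer and early cortical neurons, had 187, 192 and 185 CPM in SB4 and 0.534, 0 and 0.259 CPM in BS6, and Fezf2, which specifies neurons projecting out of the cortex, 45.8, 40.3 and 36.3 CPM in SB4 and 0.0668, 0 and 0 CPM in BS6. The layer genes Cux2 and Rorb had log2 fold changes of 5.31 ± 0.28 and 5.56 ± 0.18. Bcl11b, a factor of both cortical neurons and T cells, was not called and had 66.5, 56.9 and 53.3 CPM in SB4 and 43.7, 8.83 and 29.0 CPM in BS6 (adjusted p = 0.0902), higher in every SB4 library but with a wide spread in BS6. It was called higher in SB4 with the replicate block, in the fit over all 12 libraries and without BS6-1.

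Among 9 measured genes of inhibitory neurons 8 were DEGs higher in SB4, with a median log2 fold change of 4.61. Gad1, which makes GABA, had 464, 515 and 492 CPM in SB4 and 1.13, 26.5 and 0 CPM in BS6, Gad2 had 198, 225 and 235 CPM in SB4 and 0, 6.64 and 0 CPM in BS6 and the vesicular GABA transporter Slc32a1 had 49.6, 53.1 and 51.5 CPM in SB4 and 0, 6.26 and 0.0647 CPM in BS6. All 3 were near 0 in BS6-1 and BS6-3 and present in BS6-2. Without BS6-2 the fitted median of the list was 8.90, which is not exact since Gad2 then had no count in BS6. Vip and Dlx1, a neuropeptide and a transcription factor of interneurons, were at or near the floor in all BS6 libraries. Their fitted log2 fold changes were 9.29 ± 0.20 and 8.0 ± 0.33, which are not exact at so few counts. Pvalb, a calcium buffer of fast-spiking interneurons and of fast muscle fibres, was not called, with 59.9, 60.3 and 56.9 CPM in SB4 and 8.28, 29.4 and 40.5 CPM in BS6 (adjusted p = 0.0743), but was called higher in SB4 by DESeq2 and without BS6-3.

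Genes known from other brain regions gave mixed values at low levels. Of 13 measured, 9 were tested, 5 were higher in SB4 and 2 higher in BS6. Ppp1r1b, a phosphatase regulator abundant in striatum, had 66.7, 58.4 and 56.6 CPM in SB4 and 1.34, 10.7 and 3.88 CPM in BS6, and the dopamine receptor Drd1 had 7.97, 6.44 and 5.98 CPM in SB4 and 0.668, 0.313 and 0.647 CPM in BS6. The transcription factor Tcf7l2 and the serotonin transporter Slc6a4 were higher in BS6, the latter with no count in SB4 and 7.61, 14.1 and 10.2 CPM in BS6. Slc6a4 is also carried by platelets and their precursors. Ttr, the transport protein of the choroid plexus, was too uneven to be tested, with 0.142, 0.106 and 0.219 CPM in SB4 and 0.401, 19.6 and 59.1 CPM in BS6.

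The glial lists pointed the same way with named exceptions. Of 10 astrocyte genes 8 were DEGs higher in SB4 (median 3.67, or 4.51 without BS6-2), among them the glutamate transporter Slc1a3 (3.61 ± 0.49), the water channel Aqp4 (3.84 ± 0.60) and the filament Gfap with 48.2, 42.3 and 49.9 CPM in SB4 and 9.08, 15.5 and 6.47 CPM in BS6. Gja1, connexin 43, went the other way with 145, 148 and 152 CPM in SB4 and 459, 182 and 672 CPM in BS6 (log2 fold change -1.54 ± 0.44 (SE), adjusted p = 0.0182), although the call was lost when any 1 SB4 library was left out. Connexin 43 also couples osteoblasts and osteocytes. S100b was not called, with 66.1, 78.0 and 68.2 CPM in SB4 and 32.0, 72.2 and 52.7 CPM in BS6. Of 10 oligodendrocyte genes 8 were higher in SB4 (median 5.09). Mog, on the outer face of myelin, had 37.0, 30.5 and 28.4 CPM in SB4 and 0.0668, 0.376 and 0.0647 CPM in BS6 (log2 fold change 7.49 ± 0.45 (SE), adjusted p = 2.49e-05). Cldn11, a claudin of myelin, had 93.2, 83.3 and 62.2 CPM in SB4 and 42.2, 112 and 73.4 CPM in BS6 and was of similar level. Ugt8a, which makes a myelin lipid, had 53.8, 33.1 and 41.5 CPM in SB4 and 1.94, 25.6 and 6.53 CPM in BS6 and was called only when BS6-2 was left out, in the fit over all 12 libraries or by DESeq2.

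Oligodendrocyte precursor genes were called in both directions. Olig1 (5.99 ± 0.62), Olig2 (6.61 ± 0.63) and Gpr17 (3.82 ± 0.17) were higher in SB4. Pdgfra and Cspg4, which mesenchymal cells and pericytes share, were higher in BS6, with 44.8, 44.2 and 44.9 CPM in SB4 and 314, 204 and 349 CPM in BS6 for Pdgfra (log2 fold change -2.68 ± 0.22 (SE), adjusted p = 7.14e-05) and a log2 fold change of -1.83 ± 0.30 for Cspg4.

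Microglia and brain endothelium could not be read from their lists as whole groups. Of 10 microglia genes 3 were higher in SB4, 4 higher in BS6 and 3 not called. The 3 higher in SB4 were P2ry12, a purine receptor of resting microglia with 38.8, 37.0 and 42.7 CPM in SB4 and 12.6, 18.2 and 13.1 CPM in BS6 (log2 fold change 1.45 ± 0.17 (SE), adjusted p = 0.000347), the transcription factor Sall1 (1.62 ± 0.17) and Siglech (2.23 ± 0.26). Tmem119 and Olfml3, which bone cells also express, had log2 fold changes of -3.74 ± 0.36 and -5.43 ± 0.36, with 18.1, 15.9 and 16.2 CPM in SB4 and 202, 135 and 340.2 CPM in BS6 for Tmem119. Csf1r, the receptor that all macrophages and osteoclast precursors need, was 3.67-fold higher in BS6. Of 10 genes of brain endothelium 4 were higher in SB4, 1 was higher in BS6 and 5 were not called, and without BS6-2 Slc2a1 was also called higher in SB4. The 4 higher in SB4 serve the blood-brain barrier: Slco1c1, a thyroid hormone transporter with 65.1, 60.5 and 69.3 CPM in SB4 and 1.47, 4.44 and 1.62 CPM in BS6 (log2 fold change 4.70 ± 0.44 (SE), adjusted p = 0.000137), the lipid transporter Mfsd2a (4.38 ± 0.70), the anion transporter Slco1a4 (2.36 ± 0.35) and the transcription factor Foxq1 (1.45 ± 0.41, lost when SB4-2 was left out). The tight junction gene Cldn5 and the efflux pump Abcb1a were of similar level, and the efflux pump Abcg2, also found on marrow stem cells, was higher in BS6 (-1.88 ± 0.20).

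Bone-forming genes carried the largest levels of BS6. Of 9 measured osteoblast genes 8 were DEGs higher in BS6, with a median log2 fold change of -9.27. Col1a1 and Col1a2, the chains of collagen I, had 55350.4, 18680.1 and 77898 CPM and 56829, 20862 and 81835 CPM in BS6 against 2.56, 2.90 and 3.95 CPM and 3.42, 6.55 and 8.72 CPM in SB4 (log2 fold changes -13.95 ± 0.87 and -13.04 ± 0.91). BS6-2 had the least of both, and still over 1000 times any SB4 library. Ibsp, bone sialoprotein, was at the floor in SB4 and at 823, 509 and 1347 CPM in BS6, at least 4994-fold higher. Sp7, the factor that commits cells to the osteoblast, had 0.498, 0.423 and 0.329 CPM in SB4 and 189.9, 149 and 445 CPM in BS6 (log2 fold change -9.27 ± 0.64 (SE), adjusted p = 3.91e-05), and Spp1, osteopontin, 0.925, 1.27 and 2.08 CPM in SB4 and 2142, 3361 and 3771 CPM in BS6. Runx2, which acts before Sp7, had the smallest difference of the 8, -3.83 ± 0.30, and SB4 held 13.2, 14.1 and 13.6 CPM.

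All 6 osteocyte genes tested, of 7 measured, were DEGs higher in BS6 (median -5.23). Dmp1, a matrix protein of osteocytes, had 1.42, 1.21 and 1.48 CPM in SB4 and 132, 122 and 166 CPM in BS6 (log2 fold change -6.65 ± 0.19 (SE), adjusted p = 3.38e-06), one of the narrowest spreads among the bone genes. Sost, the osteocyte inhibitor of bone formation, had 0.142, 0.0528 and 0.219 CPM in SB4 and 7.54, 1.88 and 10.2 CPM in BS6 and was lowest in BS6-2. Fgf23, the phosphate hormone of bone, was too low to be tested, with at most 0.939 CPM. Tnfrsf11b, osteoprotegerin, which blocks osteoclast formation, had 2.21, 3.33 and 2.19 CPM in SB4 and 15.4, 39.4 and 13.1 CPM in BS6 (log2 fold change -3.11 ± 0.50 (SE), adjusted p = 0.00154) and was highest in BS6-2.

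All 9 measured osteoclast genes were DEGs higher in BS6, with a median of -7.84, or -6.72 with the genes at the floor in SB4 set to their bound. Acp5 (tartrate-resistant acid phosphatase) had 0.356, 0.0528 and 0.165 CPM in SB4 and 439, 196 and 624 CPM in BS6 and Ctsk (cathepsin K, which digests collagen) 4.27, 4.59 and 6.14 CPM in SB4 and 1379, 406 and 1699 CPM in BS6. Atp6v0d2, a subunit of the proton pump that acidifies the resorption pit, and Ocstamp, needed for osteoclast fusion, had no count in SB4, and 109.8, 27.5 and 99.1 CPM and 28.4, 5.51 and 22.6 CPM in BS6. BS6-2 was the lowest of the 3 for these 4 genes. Mmp9, a gelatinase that neutrophils also store, had 905, 930.3 and 914 CPM in BS6 and 1.14, 1.69 and 1.21 CPM in SB4, and there BS6-2 did not stand apart. The smallest difference was that of Tnfrsf11a, the receptor for RANK ligand, with -1.54 ± 0.36.

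All 10 fibroblast and periosteum genes were DEGs higher in BS6 (median -8.83, or -7.70 with bounds). Col3a1 had 1.07, 1.27 and 2.52 CPM in SB4 and 21618, 2065 and 12316 CPM in BS6 (log2 fold change -12.82 ± 1.27 (SE), adjusted p = 0.000176), periostin (Postn) 1.28, 1.37 and 1.54 CPM in SB4 and 2102, 325 and 2067 CPM in BS6, and the small matrix proteoglycan Lum 0.712, 1.06 and 1.04 CPM in SB4 and 3052, 751 and 2721 CPM in BS6. BS6-2 was lowest for all 3. Mfap5, a protein of elastic fibres, had no count in SB4 and 21.3, 19.5 and 19.2 CPM in BS6, nearly the same in each library. Pi16, known from fibroblasts around vessels, had 29.6, 211 and 43.7 CPM in BS6, with BS6-2 highest in this case. The cranial mesenchyme factors Prrx1, Twist1 and Msx1 had log2 fold changes of -5.39 ± 0.45, -8.53 ± 0.58 and -6.01 ± 0.52.

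Of 10 measured cartilage genes 7 were tested, 5 were higher in BS6 and 1 higher in SB4, and without BS6-2 9 were tested, with 6 and 1. Col11a2, a fibrillar collagen chain of cartilage and bone, had 31.6, 24.7 and 27.4 CPM in SB4 and 1677, 910.5 and 3368 CPM in BS6 (log2 fold change -6.14 ± 0.57 (SE), adjusted p = 0.000131), while the defining cartilage genes were lower, with 47.5, 20.3 and 36.6 CPM of Col2a1 and 33.5, 14.3 and 50.1 CPM of Acan in BS6. Col10a1 and Matn1, of hypertrophic and resting cartilage, did not exceed 2.65 CPM in any library. Sox9, the cartilage factor that astrocytes also express, was higher in SB4 with 23.7, 17.4 and 26.1 CPM in SB4 and 7.94, 8.01 and 11.4 CPM in BS6 (log2 fold change 1.31 ± 0.22 (SE), adjusted p = 0.00193). Col9a1 had overlapping libraries, with 0.783, 0.898 and 1.04 CPM in SB4 and 7.74, 0.814 and 5.50 CPM in BS6, and its call was lost in 5 of the 6 fits that left out a library.

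Gpx3, the secreted glutathione peroxidase of plasma and matrix, and Igfbp5, which binds insulin-like growth factors in bone matrix, were also among the 10 DEGs higher in BS6 with the highest CPM. Gpx3 had 3.13, 2.80 and 3.89 CPM in SB4 and 4961, 4264 and 5247 CPM in BS6 (log2 fold change -10.50 ± 0.26 (SE), adjusted p = 3.35e-06), with little spread in either group. Igfbp5 had 111, 113 and 104 CPM in SB4 and 3151, 2202 and 3922 CPM in BS6. Eef1a1, the translation elongation factor of most cells, was 3.51-fold higher in BS6 with 1317, 1372 and 1344 CPM in SB4 and 5507, 4148 and 4661 CPM in BS6 (log2 fold change -1.81 ± 0.16 (SE), adjusted p = 0.000104), the smallest difference of the 10.

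Most listed genes of marrow lineages were higher in BS6. All 10 late neutrophil genes were DEGs higher in BS6, with a median log2 fold change of -11.04 (-10.95 with bounds) and of -8.72 without BS6-2. S100a9, a subunit of the calprotectin of neutrophils, had 2.28, 2.80 and 1.15 CPM in SB4 and 433, 8354 and 924 CPM in BS6 (log2 fold change -10.58 ± 1.60 (SE), adjusted p = 0.00116). Ngp and Ltf (lactoferrin), stored in secondary granules, had 379.7, 6162 and 1034 CPM and 252, 3405 and 565 CPM in BS6. Cxcr2, the receptor that guides mature neutrophils out of the marrow, had 0.640, 0.370 and 0.274 CPM in SB4 and 19.96, 326 and 30.3 CPM in BS6. In each of these genes BS6-2 exceeded BS6-3 by over 5 times and BS6-1 by over 10 times. The groups did not overlap with or without it. Of the early granule list Prtn3 and Cebpe were measured, both higher in BS6 with and without BS6-2, with 41.8, 1037 and 108 CPM and 5.81, 112 and 17.5 CPM.

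Of 10 measured erythroid genes 9 were DEGs higher in BS6 (median -5.28). The beta globin Hbb-bs had 101, 170.2 and 218 CPM in SB4 and 5463, 8300.0 and 4953 CPM in BS6 (log2 fold change -5.24 ± 0.40 (SE), adjusted p = 5.93e-05) and the alpha globin Hba-a1 46.6, 65.4 and 93.2 CPM in SB4 and 2482, 3959 and 2309.6 CPM in BS6. Reads of Hba-a1 and Hba-a2, and of Hbb-bs and Hbb-bt, which are near-identical copies, could be shared between them, so the split within each pair is uncertain. Globins and Alas2, the first enzyme of heme synthesis in red cells (5.69, 9.98 and 10.2 CPM in SB4 and 242, 348 and 270.3 CPM in BS6), were highest in BS6-2. Genes of nucleated red cell precursors were lowest in the same library: the anion exchanger Slc4a1 had 168, 20.5 and 139 CPM, the transcription factor Klf1 9.88, 0.876 and 5.89 CPM and Trim10 29.6, 3.38 and 19.5 CPM in BS6. Epor, the erythropoietin receptor, was not called, with 6.26, 6.28 and 5.10 CPM in SB4 and 15.8, 7.82 and 10.4 CPM in BS6 (log2 fold change -0.93 ± 0.28 (SE), adjusted p = 0.0228), and was called higher in BS6 without BS6-2.

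B cell genes were higher in BS6 for 7 of 7 tested, of 8 measured (median -5.40, or -5.04 with bounds), and T and NK cell genes for 5 of 5 tested, of 6 measured (median -2.86, or -3.86 over the 6 tested without BS6-2). Without BS6-2 all 8 B cell genes and all 6 T and NK cell genes were tested and higher in BS6. Cd79a, of the B cell receptor complex, had 12.7, 9.70 and 20.7 CPM in BS6 and at most 0.384 CPM in SB4. Cd2 had no count in SB4 and 3.34, 2.44 and 1.55 CPM in BS6, and Zap70 was the smallest T cell difference, with -1.46 ± 0.41, lost without SB4-2 or SB4-3. Of 12 genes of progenitors and megakaryocytes 8 were higher in BS6, among them the platelet chemokines Pf4 (0.427, 0.898 and 0.658 CPM in SB4 and 69.4, 91.3 and 57.4 CPM in BS6) and Ppbp (-7.05 ± 0.40) and the platelet integrin Itga2b (-4.89 ± 0.43). Hlf, a factor of blood stem cells that neurons also express, was higher in SB4 (3.19 ± 0.25). Kit and Flt3, receptors of progenitors that some neurons carry too, were not called, and without BS6-2 both were higher in SB4. Mast cell and basophil genes were measured in 4 cases and higher in BS6 in 3 of 3 tested, with Cpa3 at 15.5, 25.9 and 30.1 CPM. All 10 monocyte and macrophage genes were higher in BS6 (median -6.04), including Lyz2, lysozyme of myeloid cells (4.77, 7.55 and 3.13 CPM in SB4 and 1858, 2246 and 987 CPM in BS6), the chemokine receptor Ccr2 (-7.60 ± 0.61) and Mrc1, the mannose receptor of tissue macrophages (1.35, 2.59 and 2.74 CPM in SB4 and 139, 131 and 119 CPM in BS6).

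Lists for tissues that could adhere to either sample were measured too. In SB4 the skeletal muscle genes Tnnt3 and Ckm did not exceed 0.475 CPM, and Fabp4, of adipocytes and vessels, 0.213 CPM. Fabp4 and Car3, the 2 adipocyte genes tested of 5 measured, were higher in BS6. Plin1 and Cidec, which coat fat droplets, did not exceed 0.518 CPM in any library. Acta1, of muscle thin filaments, had 6.76, 6.65 and 6.97 CPM in SB4 and 20.6, 14.1 and 168 CPM in BS6 and 6 of 8 muscle genes tested were higher in BS6, with BS6-3 highest for each and the Acta1 call lost without any 1 SB4 library. The part of adhering muscle in other results was not tested. Epidermal genes were low in both groups, with Krt10 at 4.27, 3.96 and 4.55 CPM in SB4 and 3.94, 2.38 and 3.43 CPM in BS6, and 1 of 5 (Lor) was called higher in SB4, a call lost without BS6-1 or SB4-1. Of 8 Schwann cell genes 5 were higher in BS6, among them Pmp22, a protein of peripheral myelin, with 18.1, 13.6 and 19.5 CPM in SB4 and 136, 139.6 and 137 CPM in BS6, and 3 were higher in SB4. Genes of meninges were uneven within BS6: Ptgds had 175, 239 and 300.4 CPM in SB4 and 99.1, 1168 and 216 CPM in BS6 and Slc6a13 1.57, 4.38 and 4.11 CPM in SB4 and 2.34, 20.8 and 6.15 CPM in BS6, neither called, while the meningeal factor Foxc1, also of cranial mesenchyme, was higher in BS6 (-4.20 ± 0.34).

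Pairs of genes with related function were also compared. Of 35 pairs set up with the form known from neurons or brain first, 18 split, with the first higher in SB4 and the second higher in BS6. The first member was a DEG higher in SB4 in 30 pairs and higher in BS6 in none, and the second was higher in BS6 in 22 and higher in SB4 in 4. These 4 included Aldoa, Sptb and Ank1, whose partners were also higher in SB4. In 8 pairs the first was higher in SB4 and the second was not called. Per kilobase of exon, the first member made over 50% of its pair's level in 32 pairs in SB4 and in 10 pairs in BS6.

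Membrane traffic and signalling gave clear cases. The share of Snap25 in its pair with Snap23, the SNARE of non-neuronal cells, was 99.1% in SB4 and 19.9% in BS6, and Snap23 had a log2 fold change of -1.98 ± 0.12. Vamp2 and Vamp8, SNAREs of vesicles, had 2.61 ± 0.11 and -4.45 ± 0.28. Among phospholipases Plcb1 had 4.86 ± 0.12 and Plcb2, of blood cells, -4.08 ± 0.55. Adcy1 and Adcy7, adenylyl cyclases, had 5.20 ± 0.64 and -2.98 ± 0.17. The proton pump subunits Atp6v0a1 and Tcirg1, the latter required by osteoclasts, had 1.99 ± 0.18 and -4.69 ± 0.13, with Tcirg1 at 13.7, 15.9 and 12.8 CPM in SB4 and 377, 373 and 358 CPM in BS6.

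Pairs of the cytoskeleton, of chromatin and of metabolism each included some that split and some that did not. Tubb3, a tubulin of neurons, was at 229.7 ± 7.25 CPM in SB4 and 3.75 ± 0.816 CPM in BS6 (SD, n = 3), and Tubb6 at 2.79 ± 0.139 CPM and 59.4 ± 25.4 CPM. The neuronal subunits Actl6b and Ss18l1 of the BAF chromatin remodeller were higher in SB4 (6.21 ± 0.52 and 2.42 ± 0.12) and their partners Actl6a and Ss18 higher in BS6 (-1.17 ± 0.14 and -1.56 ± 0.087). The splicing repressors Ptbp2 and Ptbp1, which replace one another when neurons form, had 1.26 ± 0.092 and -2.90 ± 0.10. The pairs of beta spectrin and ankyrin, whose second members are known from red cells, did not split, with Sptb at 233, 262 and 268 CPM in SB4 and 56.3, 31.4 and 50.8 CPM in BS6 and Ank1 at 81.9, 89.0 and 93.0 CPM in SB4 and 31.0, 16.6 and 25.0 CPM in BS6. Among the glycolytic pairs Eno2 was higher in SB4 (3.58 ± 0.19) and Eno1 not called (0.14 ± 0.41), while the glucose transporters Slc2a3 and Slc2a1 were not called in either direction. Slc2a3 had 37.7, 273 and 48.8 CPM in BS6 and was higher in SB4 once BS6-2 was left out. Pygb, of glycogen breakdown, was of similar level (-0.031 ± 0.095) and its partner Pygl higher in BS6 (-6.42 ± 1.11, with BS6-2 highest, or -4.67 without it).

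**Figure D3:**
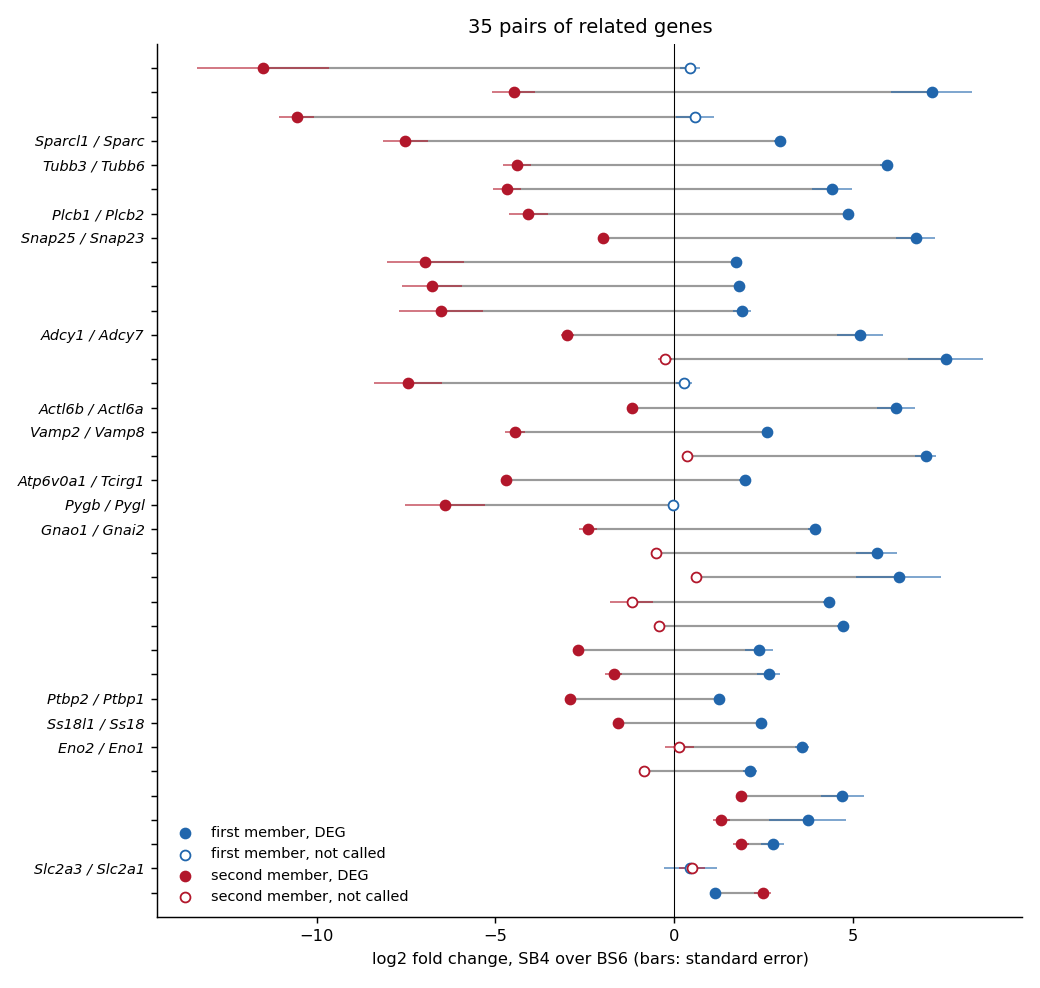
Log2 fold change of SB4 over BS6 with its standard error for both members of 35 pairs, ordered by the gap between them and labelled where the text names both, the first-named in blue and the second in red, filled where the gene was a DEG. The blue points lay at or right of 0 except Pygb (-0.031), and 22 of the red points were DEGs left of 0.

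Sparc and Sparcl1, related matrix proteins, formed a pair in which each member was among the 10 most abundant DEGs of its group. Sparc, which binds collagen and calcium in bone, had 108, 130.2 and 121 CPM in SB4 and 23993, 8649 and 34012 CPM in BS6 (log2 fold change -7.52 ± 0.63 (SE), adjusted p = 8.76e-05), and Sparcl1, made by astrocytes, 2182, 2427 and 2169 CPM in SB4 and 288, 342 and 244 CPM in BS6 (log2 fold change 2.97 ± 0.17 (SE), adjusted p = 1.92e-05). Per kilobase of exon Sparcl1 made 96.0% of the pair in SB4 and 1.66% in BS6.

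Of 10 S100 genes tested, of 12 measured, 7 were higher in BS6 and none in SB4. S100a11 had 0.783, 1.27 and 0.603 CPM in SB4 and 225, 452 and 182 CPM in BS6 and S100a10, which takes annexin A2 to membranes, 13.02, 12.3 and 12.8 CPM in SB4 and 109.7, 74.2 and 84.6 CPM in BS6. S100b and S100a1 were not called. Of 13 connexin and pannexin genes tested, of 14 measured, 6 were higher in SB4 (7 without BS6-2) and 5 in BS6. Those of oligodendrocytes (such as Gjb1 and Gjc3, at 4.31 ± 0.54 and 3.71 ± 0.27), Gjd2 of electrical synapses (3.53 ± 0.30) and Panx2 (5.05 ± 0.44) were among the 6. The vascular connexins Gja4 (-3.13 ± 0.30) and Gja5 (-5.91 ± 0.43) were higher in BS6.

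Of 28 G protein subunits tested, of 30, 11 were higher in SB4, 9 higher in BS6 (10 without BS6-2) and 8 not called, with a median log2 fold change of -0.042. Gnao1, the main alpha subunit of brain, had 641, 674 and 665 CPM in SB4 and 37.3, 54.8 and 39.3 CPM in BS6 and Gnai2, the main inhibitory alpha subunit of blood cells, 126, 122 and 115 CPM in SB4 and 531, 903 and 514 CPM in BS6. Gng3 of neurons (7.05 ± 0.71) and Gng11 of vessels and platelets (-3.47 ± 0.12) stood at opposite ends of the gamma subunits. Gnb3, a beta subunit known from cones, had 0.0712, 0.158 and 0.219 CPM in SB4 and 34.4, 43.0 and 43.6 CPM in BS6 (log2 fold change -7.93 ± 0.28 (SE), adjusted p = 4.87e-06). Gna11 and Gng12 were of similar level.

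Of 15 Sox factors tested, of 16 measured, 8 were higher in SB4 and 4 higher in BS6. The 8 were Sox1, Sox2 and Sox21 of neural progenitors and glia (5.16 ± 0.87, 5.04 ± 0.49 and 6.01 ± 0.40), Sox5, Sox8, Sox9, Sox10 and Sox11. The 4 were Sox7, Sox17 and Sox18 of endothelium (-3.08 ± 0.33, -1.69 ± 0.18 and -3.31 ± 0.24) and Sox13 (-2.21 ± 0.14). None of the 20 Hoxa and Hoxb genes listed was analysed here.

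Among water channels Aqp4 was higher in SB4 and Aqp1, of red cells and vessels, higher in BS6 with 0.427, 0.370 and 0.274 CPM in SB4 and 189.7, 156 and 251 CPM in BS6 (log2 fold change -9.09 ± 0.30 (SE), adjusted p = 4.19e-06). Aqp11 (2.20 ± 0.16) and Aqp9 (-1.84 ± 0.45) completed the 4 tested of 10 measured. Aqp5, of gland epithelium, was untested, with 24.2, 0.689 and 0.518 CPM in BS6, so BS6-1 stood far above the other 2. Carbonic anhydrases gave 4 higher in SB4 (5 without BS6-2) and 3 in BS6 of 12 tested. Car10 and Car11, which lack the catalytic activity, and Car4 and Car7 were higher in SB4, Car10 by 7.74 ± 0.76. Car3, Car13 and Car9 were higher in BS6 (-8.66 ± 1.01, -5.06 ± 0.33 and -3.95 ± 0.37). Car2, used by oligodendrocytes, osteoclasts and red cells, was not called, with 137, 103 and 113 CPM in SB4 and 146, 29.2 and 110.3 CPM in BS6. Of 10 claudins tested, of 14 measured, 5 were higher in BS6, such as Cldn1 (-3.04 ± 0.24), and Cldn12 was higher in SB4 (1.52 ± 0.13).

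Of 8 fatty acid- and retinoid-binding proteins measured and tested, 5 were higher in BS6 and Fabp3, of neurons and muscle, was higher in SB4 with 54.7, 52.2 and 56.9 CPM in SB4 and 5.14, 3.69 and 18.5 CPM in BS6. Fabp4 had 0.213, 0 and 0.0549 CPM in SB4 and 133, 157 and 106 CPM in BS6, at least 739.8-fold higher in BS6. Of 12 genes of ciliary dynein and axonemes tested, of 14 measured, 5 were higher in SB4 (6 without BS6-2) and none in BS6, all at low levels. Ccdc39 (38.9, 33.6 and 36.9 CPM in SB4 and 14.1, 10.6 and 9.51 CPM in BS6) and Dnah5 (5.41, 5.44 and 5.71 CPM in SB4 and 0, 0 and 0.129 CPM in BS6) were 2 of these 5.

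Of 19 genes of cholesterol synthesis 11 were higher in SB4, Ebp alone was higher in BS6 and 7 were not called, with a median log2 fold change of 1.29. Sqle, which oxidises squalene, had 43.6, 42.1 and 47.6 CPM in SB4 and 12.2, 18.3 and 13.8 CPM in BS6 (log2 fold change 1.60 ± 0.17 (SE), adjusted p = 0.000222). Ebp, an isomerase late in the pathway, had -1.37 ± 0.13. Reads of Fdps, at most 2.75 CPM here, may be shared with processed copies, so its level is uncertain. Of 11 genes of glutamate and GABA metabolism 10 were higher in SB4 and none in BS6 (median 2.85). Glul, the glutamine synthetase of astrocytes, had 1305, 1249 and 1338 CPM in SB4 and 418, 773 and 475 CPM in BS6 (log2 fold change 1.24 ± 0.25 (SE), adjusted p = 0.00374). Gls2 (3.87 ± 0.18), Got1 (3.08 ± 0.30) and Abat, which degrades GABA (2.85 ± 0.15), were also higher, and Glud1 was of similar level (0.31 ± 0.13).

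Heme synthesis showed 3 of 9 genes higher in BS6 and none in SB4. They included Alas2, described above, and Ppox (-1.82 ± 0.11). The housekeeping form Alas1 had 64.8, 66.6 and 65.7 CPM in SB4 and 50.7, 174 and 58.2 CPM in BS6 and was not called. Without BS6-2 Alad and Fech were also called higher in BS6, which makes 5 of 9.

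Genes of cell death were mostly higher in BS6. In apoptosis 17 of 25 genes were DEGs higher in BS6, 2 were higher in SB4 and 6 were not called, with a median log2 fold change of -1.55. Casp8, which starts death-receptor apoptosis, had 2.28, 2.01 and 2.63 CPM in SB4 and 52.4, 44.1 and 38.4 CPM in BS6 (log2 fold change -4.26 ± 0.19 (SE), adjusted p = 8.24e-06). Bax, the pore-former of mitochondria, had 11.1, 8.77 and 8.83 CPM in SB4 and 25.6, 20.8 and 19.4 CPM in BS6 (log2 fold change -1.18 ± 0.17 (SE), adjusted p = 0.000832), and Trp53 21.0, 21.2 and 22.5 CPM in SB4 and 84.4, 63.0 and 70.0 CPM in BS6. The protective gene Birc3 and the survival factor Mcl1 were higher in BS6 as well (-4.09 ± 0.24 and -2.11 ± 0.24), so members that promote death and members that restrain it were both higher in BS6. Cycs, cytochrome c, and Casp9 were higher in SB4 (1.75 ± 0.11 and 1.06 ± 0.13, the latter lost without BS6-1), and Bcl2 and Xiap were of similar level. Bid was called higher in BS6 (-1.5 ± 0.44) but lost the call without BS6-2 or any 1 SB4 library.

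Necroptosis and pyroptosis genes followed with wider gaps. Of 10 necroptosis genes 8 were higher in BS6, Cyld was higher in SB4 and Tlr3 was of similar level (median -2.62). Ripk1, the kinase that opens the pathway, had 7.90, 6.02 and 5.98 CPM in SB4 and 54.1, 53.5 and 49.3 CPM in BS6 (log2 fold change -2.96 ± 0.15 (SE), adjusted p = 1.21e-05). Ripk3 had 0.285, 0.211 and 0.274 CPM in SB4 and 27.0, 22.5 and 17.1 CPM in BS6 (log2 fold change -6.39 ± 0.28 (SE), adjusted p = 8.34e-06) and Mlkl, the pore-former it activates, 0.356, 0.370 and 0.1097 CPM in SB4 and 20.4, 9.08 and 13.5 CPM in BS6 (log2 fold change -5.65 ± 0.51 (SE), adjusted p = 0.000115), so both were close to the floor in cortex. Of 10 pyroptosis genes 8 were higher in BS6 and none in SB4 (median -2.96). Gsdmd, the pore-former, had 2.85, 3.12 and 3.02 CPM in SB4 and 88.9, 115 and 60.5 CPM in BS6 (log2 fold change -4.86 ± 0.28 (SE), adjusted p = 1.96e-05), Nlrp3 had 0.427, 0.423 and 0.384 CPM in SB4 and 8.61, 15.1 and 4.98 CPM in BS6 and Il1b 0.498, 0.264 and 0.603 CPM in SB4 and 14.4, 11.6 and 7.44 CPM in BS6. Gsdme and Il18 were not called. Macrophage and neutrophil genes were higher in BS6 too (10 of 10 in both lists), and their part in these counts was not tested.

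Of 20 ferroptosis genes 10 were higher in BS6, 2 higher in SB4 and 8 not called (median -1.02). Hmox1, which degrades heme, had 4.55, 4.38 and 3.51 CPM in SB4 and 243, 51.8 and 45.5 CPM in BS6 (log2 fold change -4.75 ± 0.79 (SE), adjusted p = 0.00172), with BS6-1 far above the other 2. Alox5 had 13.4, 152 and 21.4 CPM in BS6, highest in BS6-2, and Steap3, an iron reductase of red cell precursors, -4.28 ± 0.33. Acsl4, which loads membranes with oxidisable fatty acids, and the cystine importer Slc7a11 were higher in SB4 (1.84 ± 0.10 and 1.12 ± 0.15). Gpx4, the enzyme that repairs lipid peroxides, was of similar level with 112, 109 and 93.0 CPM in SB4 and 112, 154 and 131 CPM in BS6 (log2 fold change -0.32 ± 0.15 (SE), adjusted p = 0.086). Ftl1 had at most 12.7 CPM, and its reads may be shared with processed copies.

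Of 10 cuproptosis genes tested, of the 11 that the study named, Dlat was higher in SB4 (1.47 ± 0.097) and the copper importer Slc31a1 higher in BS6 (22.8, 24.6 and 25.1 CPM in SB4 and 89.7, 63.0 and 104 CPM in BS6; log2 fold change -1.81 ± 0.20 (SE), adjusted p = 0.000254). Without BS6-2 all 11 were tested and 2 were higher in BS6. The other 8 of the 10 were not called and 5 of them were of similar level, such as Pdha1 (0.76 ± 0.08) and Pdhb (0.75 ± 0.092), subunits of the pyruvate dehydrogenase complex. Pdha1 and Pdhb still stood higher in SB4, by less than 2-fold.

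Interferon gamma genes were higher in BS6 for 20 of 24, with none higher in SB4 and a median log2 fold change of -3.73. B2m, the light chain of MHC class I, had 84.6, 92.1 and 41.7 CPM in SB4 and 1019, 829.7 and 818 CPM in BS6 (log2 fold change -3.59 ± 0.34 (SE), adjusted p = 0.000137). Cd74, the invariant chain of MHC class II, had 0.925, 0.951 and 0.713 CPM in SB4 and 194, 226 and 124 CPM in BS6 (log2 fold change -7.69 ± 0.32 (SE), adjusted p = 7.46e-06), the largest difference of the list. Irf1, a factor the cytokine induces, had 6.62, 7.18 and 4.50 CPM in SB4 and 68.7, 136 and 65.3 CPM in BS6. The receptor chain Ifngr1 was higher in BS6 (-3.69 ± 0.20), while Jak1 was of similar level. Within SB4, SB4-3 was the lowest library for 20 of the 24 genes, with Irf7 at 8.04, 8.87 and 2.41 CPM and Gbp2 at 3.91, 7.34 and 0.933 CPM. Within BS6, BS6-2 was the highest library for 12 of the 24 genes and BS6-3 for 9. Some genes stood clearly higher in BS6-3, such as Irf7 at 77.3, 48.6 and 229 CPM, Ifit3 at 26.1, 15.6 and 104 CPM and Isg15 at 23.5, 10.1 and 80.2 CPM.

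Hypoxia genes divided. Of 23 measured and tested, 5 were higher in SB4, 7 higher in BS6 and 11 not called, with a median log2 fold change of 0.084. The 5 were Ankrd37 (1.84 ± 0.53, lost without BS6-3 or SB4-1), Bnip3 (1.96 ± 0.14), Pdk1 (1.54 ± 0.11), Aldoa (1.32 ± 0.23) and Tpi1 (1.59 ± 0.11), and without BS6-2 Egln3, Pgk1, Slc2a1 and Slc2a3 made them 9. Hif1a, the oxygen-regulated factor itself, was of similar level with 74.3, 75.8 and 76.8 CPM in SB4 and 134, 87.1 and 105 CPM in BS6 (log2 fold change -0.51 ± 0.16 (SE), adjusted p = 0.0281), as was Vegfa with 129, 93.7 and 122 CPM in SB4 and 69.2, 80.3 and 90.6 CPM in BS6. The 7 higher in BS6 included the collagen hydroxylases P4ha1 and P4ha2 (-1.19 ± 0.35 and -2.55 ± 0.31), Hk2 (3.91, 2.85 and 2.85 CPM in SB4 and 14.4, 40.4 and 28.1 CPM in BS6) and Car9 (0.142, 0.106 and 0.219 CPM in SB4 and 3.20, 2.32 and 2.14 CPM in BS6). The P4ha1 call was lost in 5 of the 6 fits that left out a library.

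From a larger set of genes highly expressed in injured brain, the study named 11 for their direction in human cancers, and all were DEGs higher in BS6 here (median -5.20). The rest of that set was not analysed here. The list was chosen by the study and is not independent evidence of a direction. Of the 11, Top2a (0.0712, 0.423 and 1.15 CPM in SB4 and 90.0, 157 and 85.2 CPM in BS6), Mki67 (0.854, 0.528 and 1.37 CPM in SB4 and 166, 322 and 142 CPM in BS6), Rrm2 and Mcm6 belong to dividing cells, with log2 fold changes of -7.55 ± 0.65, -7.81 ± 0.53, -5.09 ± 0.46 and -5.10 ± 0.38. The other 7 are matrix, cytokine and stress genes, among them Ptx3 (0.142, 0.264 and 0.219 CPM in SB4 and 50.8, 31.7 and 70.7 CPM in BS6) and Socs3 (2.78, 4.17 and 3.46 CPM in SB4 and 37.2, 66.2 and 43.0 CPM in BS6). In SB4 none of the 4 genes of dividing cells exceeded 2.03 CPM, and in BS6 all 4 were highest in BS6-2.

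**Figure D4:**
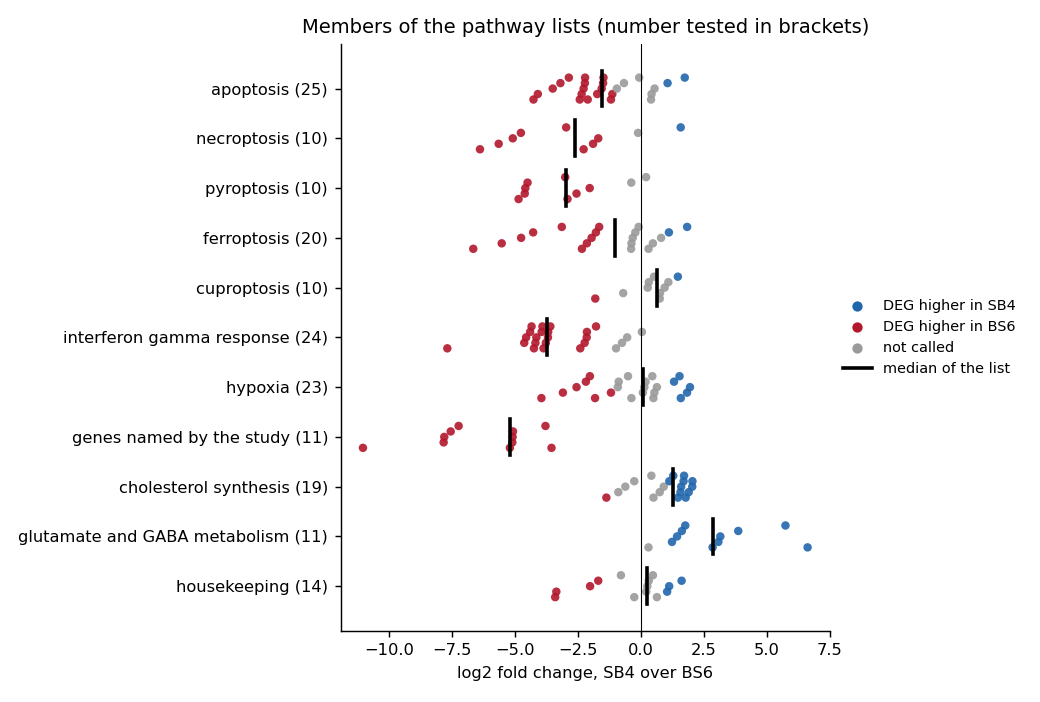
Log2 fold change of SB4 over BS6 for each member of 11 lists, blue and red where the gene was a DEG and grey where it was not called, with a black bar at the median of the list. The medians ran from -5.20 for the 11 genes that the study named to 2.85 for glutamate and GABA metabolism, and hypoxia (0.084) lay closest to 0.

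Genes of similar level were led by those of mitochondria. The 10 with the highest mean level were mt-Co1, mt-Cytb, mt-Nd1, mt-Nd5, mt-Nd2, mt-Nd4, Psap, Fth1, Srrm2 and Ddx5. For mt-Nd1, a subunit of complex I, the levels were 5375, 5329 and 5586 CPM in SB4 and 4334, 6729.6 and 5324 CPM in BS6 and the log2 fold change was 0.0086 ± 0.20. mt-Co1, a subunit of cytochrome oxidase, had 19204, 18207 and 19118 CPM in SB4 and 18281, 30707 and 21452 CPM in BS6, with BS6-2 highest. Psap, the lysosomal prosaposin, had 1247, 1316 and 1227 CPM in SB4 and 1858, 1343 and 1273 CPM in BS6, and Ddx5, an RNA helicase, 951, 973 and 989 CPM in SB4 and 937, 1034 and 912 CPM in BS6 (log2 fold change 0.032 ± 0.11 (SE), adjusted p = 0.804), and the standard errors of Ddx5 and Srrm2 were the smallest of the 10. Fth1, the iron store ferritin, had an adjusted p of 0.0455 but a log2 fold change of only -0.38 ± 0.14.

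The usual reference genes were not a level baseline between these tissues. Of 14, 3 were higher in SB4 (4 without BS6-2), 4 higher in BS6 and 7 not called, 4 of them of similar level. Rplp0, of the large ribosomal subunit, had 54.3, 49.9 and 51.3 CPM in SB4 and 567, 552 and 543 CPM in BS6 (log2 fold change -3.40 ± 0.10 (SE), adjusted p = 3.53e-06), and Actb 677, 659 and 711 CPM in SB4 and 1497, 3743 and 1451 CPM in BS6 (log2 fold change -1.69 ± 0.40 (SE), adjusted p = 0.00807). Ywhaz and Hprt were higher in SB4 (1.62 ± 0.21 and 1.13 ± 0.17). Tbp (38.9, 35.9 and 39.5 CPM in SB4 and 28.6, 33.1 and 31.0 CPM in BS6) and Polr2a (88.4, 89.8 and 94.5 CPM in SB4 and 157, 159.8 and 159.7 CPM in BS6), of the transcription machinery, were of similar level. Polr2a was still higher in every BS6 library than in any SB4 library, by less than 2-fold. Gapdh had 11.2 to 25.5 CPM and Ppia 12.8 to 19.6 CPM in all 6 libraries. Both have many processed copies whose shared reads may not be counted, so these levels are uncertain.

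Genes higher in SB4 were longer. Their median length from start to end in the GENCODE M21 annotation was 29179 bases, against 16318 bases for genes higher in BS6, 22677 bases for genes of similar level and 20892 bases for all 17124 genes tested with a length. Genes over 100 kilobases made 22.7% of those higher in SB4, 10.3% of those higher in BS6 and 9.79% of those of similar level, against 13.5% of all. Grin2b, of 460279 bases, and Pcsk2, of 270130 bases, are examples from the largest differences, and Mmp13 spans 10818 bases. Genes are not replicates, so this is a description with no test.

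The last comparison asked whether the difference between brain-type and bone-type libraries was alike on the late and the early days. The libraries labelled BS2 and SB2 went against their tissue labels in the neuron and osteoblast lists: neuron genes summed to 9449 to 9666 CPM in BS2 and 177 to 208 CPM in SB2, and osteoblast genes to 166 to 195 CPM in BS2 and 70636 to 81021 CPM in SB2. The early difference was therefore taken as BS2 minus SB2, the libraries labelled so, and set against SB4 minus BS6. Which label is right was not tested, and day, injured site and label cannot be told apart in this contrast. Of 18068 genes tested over all 12 libraries, 99 (0.548%) had a larger value late (SB4 minus BS6 above BS2 minus SB2) and 159 (0.880%) a smaller one. In 88 of the 99 and 147 of the 159 the bone-type libraries BS6 and SB2 differed more, on the scale of log2(mean CPM + 1), than the brain-type libraries SB4 and BS2 did. The counts depended on the tool, the scaling and single libraries, with 218 larger and 482 smaller by DESeq2, 160 and 109 with total counts only, and 31 to 225 larger and from 31 to 361 smaller when 1 of the 12 was left out.

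Genes were named by size where the mean of 1 or more of the 4 groups reached 50 CPM, and of these Oas1c had the largest value. It belongs to the oligoadenylate synthetase family, which senses viral RNA, and lies on chromosome 5 (120800194 to 120812514). It had 83.0, 68.3 and 78.7 CPM in SB4, 1.00, 4.26 and 2.98 CPM in BS6, 1.30, 1.47 and 1.38 CPM in BS2 and 1.02, 1.84 and 1.27 CPM in SB2 (late minus early 4.78 ± 0.57 (SE), adjusted p = 0.0045). All SB4 libraries were high and the other 9 below 5 CPM, and the call held when any 1 library was left out. Dio2, which activates thyroid hormone and is known from astrocytes and osteoblasts, had 93.4, 57.3 and 108 CPM in SB4, 20.6, 23.6 and 26.0 CPM in BS6, 77.9, 63.9 and 76.7 CPM in BS2 and 121, 108 and 92.8 CPM in SB2 (2.44 ± 0.29 (SE), adjusted p = 0.0045), so BS6 was the low group. Ptgs2, cyclooxygenase 2, had 9.28, 12.5 and 17.5 CPM in BS6 and 95.9, 31.9 and 64.5 CPM in SB2 (2.65 ± 0.50 (SE), adjusted p = 0.0221).

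For Prg4, lubricin, and Timp1, an inhibitor of matrix proteases, every BS6 library lay below every SB2 library. Prg4 had 999, 944 and 1513 CPM in SB2, 15.7, 57.7 and 20.6 CPM in BS6, 1.64, 2.69 and 2.85 CPM in SB4 and 2.61, 9.89 and 8.69 CPM in BS2 (3.67 ± 0.81 (SE), adjusted p = 0.0355), and Timp1 800.4, 545 and 872 CPM in SB2 and 145, 49.0 and 159 CPM in BS6 (2.53 ± 0.60 (SE), adjusted p = 0.0437). The cartilage proteoglycan Acan had 95.6, 95.9 and 97.6 CPM in SB2 and 33.5, 14.3 and 50.1 CPM in BS6 (2.05 ± 0.49 (SE), adjusted p = 0.0459). The calls of these 3 and of Ptgs2 were lost in 6 or more of the 12 fits that each left out 1 library, the fits without an SB4 or a BS2 library among them. Tubb3 and Tubb6, paired above, were also called larger (1.13 ± 0.19 (SE), adjusted p = 0.0162 and 1.84 ± 0.44 (SE), adjusted p = 0.0467). The Tubb3 call was lost without SB4-1 or SB4-3, and the Tubb6 call in 9 of the 12 fits that each left out 1 library.

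Cholesterol synthesis was the listed pathway with the most calls in this contrast, 6 of 19 larger and none smaller, against 0.548% of all genes. They were Hmgcs1 (1.39), Idi1 (1.70), Fdft1 (1.43), Sqle (1.63), Lss (1.02) and Cyp51 (2.01). Cyp51, which removes a methyl group from lanosterol, had 55.1, 40.5 and 60.2 CPM in SB4 and 53.8, 51.2 and 51.5 CPM in BS2, but 18.0, 19.2 and 15.6 CPM in BS6 and 80.5, 65.5 and 67.4 CPM in SB2 (2.01 ± 0.20 (SE), adjusted p = 0.00265). Hmgcs1, which makes HMG-CoA, had 37.5, 40.4 and 32.6 CPM in BS6 and 104, 103 and 116 CPM in SB2 (1.39 ± 0.13 (SE), adjusted p = 0.00265). The higher level of the pathway in SB4 over BS6 was thus not matched between BS2 and SB2, where the 19 genes summed to 820 to 900 CPM and 688 to 728 CPM, compared with 730 to 890 CPM in SB4 and 296 to 412 CPM in BS6. Idi1 and Lss lost the call when certain libraries were left out, and the other 4 did not.

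Genes with a smaller value included 4 members of the lists and the 5 of largest size among those that reached 50 CPM in the same way. A830036E02Rik, annotated as antisense on chromosome 11 (99416956 to 99425497), had 78.6, 90.8 and 108 CPM in SB4, 8.48, 6.26 and 10.5 CPM in BS6, 93.0, 101 and 102 CPM in BS2 and 0.739, 0.722 and 1.45 CPM in SB2 (-3.20 ± 0.34 (SE), adjusted p = 0.00306). Whether counting used strand is not given, so its reads cannot be told from those of a gene on the other strand. Sowaha had 3.20, 1.502 and 2.85 CPM in BS6 and 0.227, 0.394 and 0.182 CPM in SB2 (-3.02 ± 0.42 (SE), adjusted p = 0.00768), with both brain-type groups between 46.7 and 64.2 CPM. Cnih3, an AMPA receptor partner, was near the floor in SB2 and BS6 (-3.03 ± 0.75 (SE), adjusted p = 0.0488). H2-Ea-ps, a pseudogene of an MHC class II chain, had 139.7, 149 and 70.7 CPM in BS6 and 30.1, 26.5 and 30.6 CPM in SB2 (-3.01 ± 0.69 (SE), adjusted p = 0.0403), and Slc47a1, an exporter of organic cations known from meninges, 117, 225 and 158 CPM and 71.2, 76.7 and 69.1 CPM (-2.98 ± 0.60 (SE), adjusted p = 0.0275). Both were also lower in every SB4 library than in every BS2 library, Slc47a1 with 0.712, 2.22 and 2.91 CPM in SB4 and 3.26, 10.02 and 7.46 CPM in BS2, a larger ratio of means than in bone, and H2-Ea-ps with 0.213, 0.211 and 0.165 CPM in SB4 and 0.415, 0.255 and 0.507 CPM in BS2, near the floor. Of these 5, A830036E02Rik and Sowaha kept the call when each library was left out in turn, and the other 3 did not.

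The 4 list members were Epor, Irf8, Car7 and Dnah7a, and in each every BS6 library lay above every SB2 library. Epor had 15.8, 7.82 and 10.4 CPM in BS6 and 2.05, 2.69 and 2.42 CPM in SB2 (-2.31 ± 0.38 (SE), adjusted p = 0.0142). Irf8, the factor of monocyte fate, had 50.1, 84.8 and 49.6 CPM and 21.8, 23.4 and 17.8 CPM (-1.69 ± 0.33 (SE), adjusted p = 0.0245). Car7 had 4.67, 6.45 and 3.17 CPM and 1.88, 1.97 and 1.33 CPM (-1.53 ± 0.31 (SE), adjusted p = 0.0271), and the dynein chain Dnah7a 4.94, 5.70 and 5.63 CPM and 0.853, 2.50 and 0.605 CPM (-2.35 ± 0.54 (SE), adjusted p = 0.0393). Epor kept the call without each library in turn, and the other 3 lost it in some of these fits. None of the listed neuron, astrocyte, oligodendrocyte, microglia, osteoblast, osteoclast, fibroblast or neutrophil genes was called in this contrast.

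**Figure D5:**
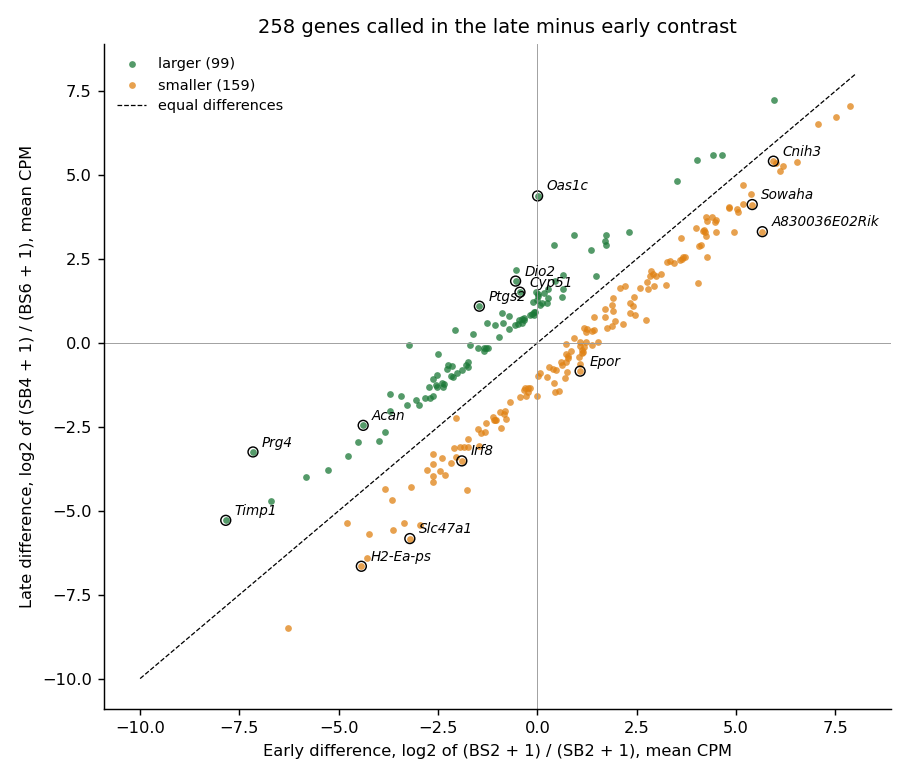
Late difference (SB4 over BS6, vertical axis) against early difference (BS2 over SB2, horizontal axis), each as log2 of the ratio of mean CPM + 1, for the 258 genes called in the late minus early contrast, 99 larger in green and 159 smaller in orange. The dashed line marks equal differences, Oas1c lies far above it near 0 on the early axis, and Prg4 and Timp1 lie at the lower left above the line.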

How the data were processed

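Poly(A) RNA from mouse tissue was sequenced from both ends. According to the study's methods the authors trimmed reads with fastp and aligned them to mm10 with HISAT2 2.1.0, and the counter, its annotation and its use of strand are not given in the sources used here. The study's analysis included a ComBat_seq batch correction across these and earlier libraries, and whether the deposited counts carry that step is not given. The deposited table holds whole-number read counts per gene symbol, not normalized, for 12 libraries of 14126082 to 18972654 counts. Genes with low counts were removed with filterByExpr (minimum count 10), libraries were scaled by TMM, and SB4 was compared with BS6 by the robust quasi-likelihood test of edgeR 4.0.16 in R 4.3.3, with Benjamini-Hochberg adjustment over all genes tested. The difference SB4 minus BS6 less BS2 minus SB2 was tested over 12 libraries. Genes past both limits (adjusted p below 0.05, fold change above 2) were called DEGs. Standard errors are those of the log2 fold change. CPM used TMM factors over 12 libraries, and 3 counts per library was the floor for folds. P-values measure the spread between the libraries of a group, and counting error is small at this depth except near the floor. Genes named are the most abundant and most different DEGs without overlap between groups (10 and 5 a side), the 10 most abundant genes of similar level, 5 a side of the late minus early contrast where the mean of 1 group reached 50 CPM, and members of lists and pairs, and some of these are not reported here by name. Members and lists were chosen with earlier results of these data known. Gene positions came from GENCODE M21 and promoters from RefSeq (GRCm38.p6). The procedure was tested on simulated counts in which both groups had the mean levels of SB4, few genes changed and all genes had the same spread. That setting does not show how the fit behaves with as many DEGs as here or with the uneven spread within BS6. DESeq2 1.42.0, other scaling, filters and designs, and leaving out each library, were tried as alternatives.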

Additional observations from a re-analysis of the deposited data

Results flagged for a closer look

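Outlying libraries were not tested formally in groups of 3. Listed here are genes whose difference between brain-type and bone-type libraries differed between the late pair (SB4 minus BS6) and the early pair (the libraries labelled BS2 minus SB2) in edgeR's test of the contrast, among the genes named by size and the listed and paired genes. Values are signed (SB4 minus BS6, less BS2 minus SB2), so a larger value does not mean a wider gap between brain-type and bone-type libraries. Prg4, called larger, had means of 2.39 CPM in SB4 and 31.3 CPM in BS6. Its early means were 7.06 CPM in BS2 and 1152 CPM in SB2, a wider gap than late. A larger value late was found for Oas1c (4.78 on the log2 scale), Prg4 (3.67), Ptgs2 (2.65), Timp1 (2.53), Dio2 (2.44), Acan (2.05), Tubb3 (1.13) and Tubb6 (1.84). The cholesterol genes Hmgcs1 (1.39), Idi1 (1.70), Fdft1 (1.43), Sqle (1.63), Lss (1.02) and Cyp51 (2.01) were larger as well. A smaller value late was found for A830036E02Rik (-3.20), Cnih3 (-3.03), Sowaha (-3.02), H2-Ea-ps (-3.01), Slc47a1 (-2.98), Epor (-2.31), Irf8 (-1.69), Car7 (-1.53) and Dnah7a (-2.35). H2-Ea-ps, called smaller, had a wider gap late, with means of 0.196 CPM in SB4 and 120 CPM in BS6. Its early means were 0.392 CPM in BS2 and 29.1 CPM in SB2. Of these 23 genes, 9 kept the call under every alternative run for single genes in this contrast. Label, injured site and day cannot be told apart in this contrast.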

How the results depend on the processing

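In the comparison of SB4 with BS6, every count of DEGs and of genes of similar level stayed within 1.5 times its reported value. Genes higher in SB4 numbered 3792 (glmTreat, a test against the fold threshold) to 6410 (adjusted p alone), genes higher in BS6 4159 to 6589, and genes of similar level 3751 to 5176. Of 265 called genes tracked by name, 251 kept the call under every alternative run for single genes (all but glmTreat and adjusted p alone) and 14 lost it under at least 1, and none changed direction. The late minus early counts moved far more. The 99 larger genes became 218 with DESeq2, 160 with total counts only, 127 without the filter, 389 with adjusted p alone, and 31 to 225 when 1 library was left out. The 159 smaller genes became 482 with DESeq2, 109 with total counts only, 120 without the filter, 331 with adjusted p alone, and 31 to 361 when 1 library was left out. More genes were larger than smaller, the reverse of the reported balance, with total counts only, without the filter, with adjusted p alone, without SB2-3 (108 and 89) and without BS2-3 (47 and 38), and without SB4-1 the counts were equal (31). These counts rose without a BS6 library and fell without SB2-1 or any 1 of the SB4 or BS2 libraries, and the cause was not tested. With the replicate number as a replicate block, 4576 and 4900 genes were DEGs, 4093 of similar level, and 83 and 127 were called in the contrast. Deviations of libraries with the same number in SB4 and BS6 had correlations of -0.0105, 0.0413 and 0.0228. Those with different numbers ran from -0.054 to 0.0541. With so few libraries of different tissues, this cannot decide whether libraries with the same number shared any handling. Depth limits genes near 3 counts per library, and for these the fold is a bound.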

Other observations

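The values in this section were chosen after they were seen. A few genes known from cerebellum or from inhibitory neurons had their highest bone level in BS6-2, while Zic1 and Zic4, given below and also known from cerebellum, had their lowest there. Cbln3, a cerebellin of granule cells, had 0.356, 0.739 and 0.549 CPM in SB4 and 0.801, 15.1 and 1.49 CPM in BS6, and its call (higher in BS6) was lost without BS6-2 or without any 1 SB4 library. Pcp2 and Ppp1r17, known from Purkinje cells, had 0.0668, 4.82 and 0 CPM and 0, 3.88 and 0 CPM in BS6 and at most 0.640 CPM in SB4. Calb1, a calcium buffer, had 156, 175 and 204 CPM in SB4 and 1.00, 20.1 and 0.0647 CPM in BS6 and its call (higher in SB4) was lost without any 1 SB4 library. Gria1, a glutamate receptor subunit, had 3.81, 43.9 and 4.14 CPM in BS6.

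Zic1, Zic2 and Zic4, known from neural patterning, and Gdf10 were higher in BS6, while Sox1, Sox2 and Sox21, given above, were higher in SB4. No fixed list of such genes was tested. The Zic genes and Gdf10 were also high in the bone-type libraries SB2, such as Zic1 with 176, 203 and 203 CPM. Zic1 had 4.63, 6.13 and 6.97 CPM in SB4 and 213, 171 and 217 CPM in BS6 (log2 fold change -5.06 ± 0.20 (SE), adjusted p = 6.71e-06), Zic2 6.33, 7.66 and 9.60 CPM in SB4 and 52.0, 62.4 and 58.3 CPM in BS6 (log2 fold change -2.85 ± 0.18 (SE), adjusted p = 2.81e-05) and Zic4 1.71, 2.69 and 3.07 CPM in SB4 and 112, 60.5 and 86.2 CPM in BS6 (log2 fold change -5.08 ± 0.34 (SE), adjusted p = 3.41e-05). Gdf10, a bone morphogenetic protein relative, had 2.78, 3.70 and 3.51 CPM in SB4 and 169.6, 183 and 302 CPM in BS6 (log2 fold change -6.01 ± 0.31 (SE), adjusted p = 1.44e-05).

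A neighbour of Oas1c on chromosome 5 differed in the other direction between the brain-type groups. Rph3a, rabphilin of synaptic vesicles (120940499 to 121010092), had 11.03, 12.1 and 12.9 CPM in SB4 and 519, 514 and 550.1 CPM in BS2, whereas Oas1c (120800194 to 120812514) had 83.0, 68.3 and 78.7 CPM and 1.30, 1.47 and 1.38 CPM. The 2 groups did not overlap for either gene. The late minus early value of Rph3a did not pass the test (-2.80 ± 1.25 (SE), adjusted p = 0.214). Oas1b, of the same family as Oas1c, differed in the direction of Oas1c, with 5.98, 5.02 and 6.58 CPM in SB4 and 0.652, 0.511 and 0.579 CPM in BS2. It was called larger in the same test (3.395 ± 0.596 (SE), adjusted p = 0.0171). Unlike Oas1c it was also present in SB2, with 7.62, 7.88 and 8.53 CPM.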
